A study of Rattus norvegicus with 8 samples.

Results

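The 10 genes described here, which are switched on as oligodendrocyte precursor cells (OPCs) commit to differentiate, were measured in cultured rat cells. They are the receptor gene Gpr17, the transcription factor genes Myrf, Tcf7l2 and Zfp488, the ectoenzyme genes Enpp2 and Enpp6, the calcium channel gene Itpr2, the adaptor genes Tns3 and Bcas1, and the kinase gene Fyn. They were taken by gene symbol from the deposited table, in which each of the 10 has 1 row among 32883. Each averaged 1 FPKM or more across all 8 libraries, so that all 10 were among the 11263 genes tested. FPKM is the number of fragments per kilobase of transcript, scaled to library size, so levels of different genes can be set side by side. The genes were chosen by their known role, and selected on their FPKM difference between male and female cultures in these same libraries. That difference is therefore given for the 10 genes as a description, with no p-value.

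The study compared OPC cultures from the cerebral cortex of male and female Sprague Dawley rats, with 4 libraries of total RNA per sex. Both groups came from animals 1 to 2 days old and were handled alike. Mixed glia grew in DMEM with 20% serum, and the cells that did not adhere were then kept for 4 to 5 days in Neurobasal medium with 2% B27, 2 mM glutamine, 10 ng/ml PDGF and 10 ng/ml FGF. No other genotype, treatment or age was compared, and the labels do not say whether libraries of 1 sex came from separate litters, animals or pools, so errors cover the spread between these libraries only, which may be technical.

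PDGF and FGF keep OPCs dividing. When OPCs leave division they pass through a short committed stage, in which Gpr17 and Bcas1 come on and the precursor markers Pdgfra and Cspg4 (NG2) go down, before myelin genes are made in quantity. Olig2 and Sox10 act upstream of Myrf, a membrane-bound factor that cuts itself free and then switches on myelin genes. GPR17 itself is a brake: it is present mostly around this stage and must be lost again for maturation.

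The precursor markers of the label were present. Pdgfra stood at 229 ± 10.4 (SD, n = 4 here and below) in male and 303 ± 27.8 FPKM in female cultures, Cspg4 at 90.9 ± 10.6 and 118 ± 13.6 FPKM, and the astrocyte marker Gfap at 2.39 ± 1.81 and 1.96 ± 2.13 FPKM. The rest of the astrocyte list was uneven. Slc1a3 stood at 86.8 ± 8.19 and 74.0 ± 4.08 FPKM, and Aldoc at 88.7 ± 11.7 and 102 ± 2.75 FPKM. Sox9 stood at 23.4 ± 1.22 and 29.5 ± 4.33 FPKM, and Fgfr3 at 3.71 ± 0.674 and 5.01 ± 0.814 FPKM. Aqp4 and Aldh1l1 averaged below 1 FPKM and were not tested. The 10 genes of that list summed to 225 to 246 FPKM in male and 225 to 254 FPKM in female libraries. The 7 markers of blood vessel and connective tissue cells summed to at most 2.31 FPKM in any library, with Cldn5 and Col1a2 listed at 0 in all 8. The FPKM of all genes summed to between 648382.6 and 773918.5 per library, and between 12709 and 14014 genes were above 0. Steps between low values gave depths of 0.304 to 1 relative to male 1, the deepest library. The number of fragments behind a value is unknown, so no counting interval can be given.

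Promoter windows are shown for 4 of the genes, Gpr17, Tns3, Tcf7l2 and Enpp6, as examples of windows with a motif match, 1 of them with matches to 3 motifs. The RefSeq promoter table of build GRCr8 held windows for 7 of the 10 genes (Gpr17, Enpp6, Tns3, Tcf7l2, Zfp488, Itpr2 and Fyn), and not for Myrf, Bcas1 and Enpp2. Each window runs 5′ to 3′ from 250 bases before to 50 bases after the annotated start. Capitals mark matches, on either strand, to the SOX core ACAANG, the MYRF core CTGGCAC or the E-box CAGCTG, which basic helix-loop-helix factors bind.
Gpr17, chr18:23857332-23857631, minus strand: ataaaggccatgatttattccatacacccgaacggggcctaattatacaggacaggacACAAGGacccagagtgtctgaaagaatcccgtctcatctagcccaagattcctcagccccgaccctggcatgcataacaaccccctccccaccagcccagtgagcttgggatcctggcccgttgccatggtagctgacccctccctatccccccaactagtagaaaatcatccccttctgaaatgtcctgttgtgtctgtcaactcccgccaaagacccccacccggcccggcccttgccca
Tns3, chr14:87619337-87619636, minus strand: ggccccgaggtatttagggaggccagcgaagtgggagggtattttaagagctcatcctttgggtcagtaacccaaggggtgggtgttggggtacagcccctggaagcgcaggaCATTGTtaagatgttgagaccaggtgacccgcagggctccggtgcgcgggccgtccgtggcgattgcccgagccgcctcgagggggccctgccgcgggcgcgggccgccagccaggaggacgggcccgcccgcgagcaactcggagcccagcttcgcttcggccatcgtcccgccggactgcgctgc
Tcf7l2, chr1:264791085-264791384, plus strand: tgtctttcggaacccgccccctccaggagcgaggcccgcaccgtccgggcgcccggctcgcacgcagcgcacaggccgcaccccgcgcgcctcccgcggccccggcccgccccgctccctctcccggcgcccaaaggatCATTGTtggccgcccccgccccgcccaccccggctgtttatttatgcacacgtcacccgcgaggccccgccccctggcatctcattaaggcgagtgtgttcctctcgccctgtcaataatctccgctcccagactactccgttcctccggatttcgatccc
Enpp6, chr16:52026679-52026978, minus strand: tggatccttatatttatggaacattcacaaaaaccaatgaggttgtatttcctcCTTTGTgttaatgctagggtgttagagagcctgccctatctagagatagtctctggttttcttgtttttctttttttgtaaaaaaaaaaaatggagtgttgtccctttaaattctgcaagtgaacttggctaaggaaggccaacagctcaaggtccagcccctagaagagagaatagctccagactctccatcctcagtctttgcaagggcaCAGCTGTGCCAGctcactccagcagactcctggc

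The SOX core was found once in each of these 4 windows and once in that of Fyn, thus in 5 of 7, against 42.1% of all 33469 windows in the table. It began 192 bases before the start in Gpr17, 137 in Tns3, 111 in Tcf7l2, 196 in Enpp6 and 86 in Fyn. The MYRF core was found in 1 of 7 windows, that of Enpp6, against 4.75% of all windows, and the E-box in the same window only, against 15.1%. In the Enpp6 window the E-box and the MYRF core share 1 base, so their capitals form 1 run. The TCF/LEF core TCAAAG was in none of the 7, against 16.1% of all windows, and Zfp488 and Itpr2 held no match to any of the 4 motifs. GC content ranged from 43.3% in Enpp6 to 78.0% in Fyn. A match is a run of letters and is not evidence that a factor binds there.

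**Figure D1:**
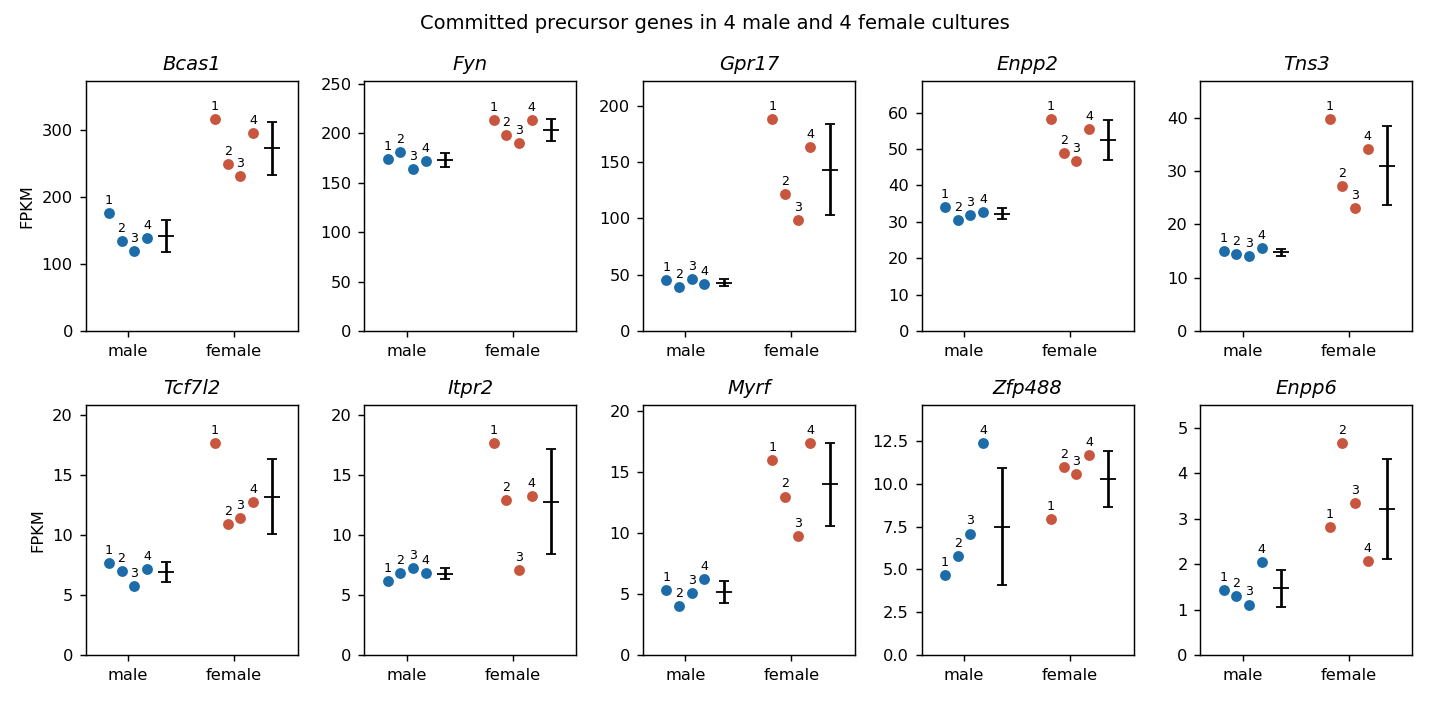
FPKM of each of the 10 genes (vertical axes, starting at 0 and scaled per gene) in 4 male and 4 female libraries; points are libraries with their number, bars the mean ± SD. Female points lie above all male points in 8 genes, while Itpr2 and Zfp488 overlap between the sexes.

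Gpr17 (ENSRNOG00000025745), the gene of the G protein-coupled receptor of the committed stage, had the largest log2 difference of the 10, although Bcas1 differed by more in FPKM. It was measured at 45.2, 38.8, 46.4 and 42.2 FPKM in the male cultures 1 to 4, and 188, 122, 98.7 and 163 FPKM in the female cultures 1 to 4. The male cultures lay close together, the female ones spread over a 1.91-fold range, and the lowest female value was 2.13 times the highest male one. The log2 difference was -1.66 ± 0.18 (SE). Like all differences here it is the male level minus the female level after log2(FPKM + 1), which understates the change of low genes.

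Genes close to GPR17 by ligand or family were mostly low. The cysteinyl leukotriene receptor genes Cysltr1 and Cysltr2 and the chemokine receptor gene Cxcr2 were listed at 0 in all 8 libraries, and P2ry1, P2ry2, P2ry6, P2ry14, Alox5 and Ltc4s were below the filter. Of 17 genes of leukotriene and purine receptors, their enzymes and G protein partners, 8 were tested and 1, Alox5ap, was higher in female cultures (0.448 ± 0.358 against 1.90 ± 0.259 FPKM, log2 difference -1.03 ± 0.23, adjusted p = 0.0267, limma-trend). Its average over the 8 libraries was 1.17 FPKM, so it passed the filter of 1 FPKM only through the female cultures. Alox5ap, which encodes the helper protein of leukotriene synthesis, was no longer called on leaving out male 3, male 4, female 2, female 3 or female 4, without male 1 and female 3 together, with a pseudocount of 0.1, with a term for depth and with a replicate block (adjusted p up to 0.0907). The chemokine receptor gene Cxcr4 lay the other way without being called, at 2.91 ± 0.607 against 1.39 ± 0.744 FPKM (0.75 ± 0.24, adjusted p = 0.0961).

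Among the transcription factors, Myrf (ENSRNOG00000028274) stood at 5.36, 4.00, 5.07 and 6.20 FPKM in the male cultures 1 to 4, and 16.0, 13.0, 9.76 and 17.4 FPKM in the female cultures 1 to 4. No female culture reached down to the male range, and the difference was -1.27 ± 0.18. Set against Gpr17 within each library, Myrf was 0.120 ± 0.0193 of the Gpr17 level in male and 0.0994 ± 0.010 in female cultures, and these ratios overlapped. Set against Sox10, its upstream factor, Myrf was 0.0269 ± 0.00459 of the Sox10 level in male and 0.0573 ± 0.0138 in female cultures, with no overlap.

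Of 7 tested genes that act with or on Myrf, 1 was called, Sox10, which is described with the regulators. Tmem98, which blocks the self-cutting of MYRF, stood at 10.7 ± 2.52 against 9.02 ± 1.17 FPKM (0.21 ± 0.16, adjusted p = 0.513, limma-trend). Fbxw7, which sends MYRF for degradation, stood at 6.87 ± 1.37 against 5.99 ± 2.52 FPKM (0.23 ± 0.25, adjusted p = 0.654). The MYRF target gene Dusp15 stood at 6.84 ± 0.372 against 9.15 ± 1.42 FPKM (-0.36 ± 0.13, adjusted p = 0.130) and was called as higher in female cultures once female 3 was left out. The paralog Myrfl was listed at 0 in all 8 libraries.

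Tcf7l2 (ENSRNOG00000049232), the Wnt pathway factor of newly formed oligodendrocytes, was measured at 7.69, 7.01, 5.75 and 7.18 FPKM in the male cultures 1 to 4, and 17.7, 10.9, 11.4 and 12.8 FPKM in the female cultures 1 to 4. The groups did not overlap (-0.83 ± 0.15), and female 1 stood above the other 3 female cultures. Among its relatives, Lef1 stood at 3.30 ± 0.643 against 2.08 ± 0.771 FPKM (0.50 ± 0.20, adjusted p = 0.182, limma-trend) and Tcf7l1 at 9.87 ± 1.05 against 12.9 ± 0.700 FPKM (-0.36 ± 0.11, adjusted p = 0.0721). The Wnt feedback gene Axin2 stood at 2.27 ± 0.299 against 2.47 ± 0.312 FPKM (-0.09 ± 0.16, adjusted p = 0.809) and the beta-catenin gene Ctnnb1 at 356 ± 17.7 against 393 ± 22.7 FPKM (-0.14 ± 0.06, adjusted p = 0.222). Of 15 tested Wnt genes and partners of Tcf7l2, 1 was called, the corepressor gene Tle3, at 21.0 ± 1.56 against 30.0 ± 4.11 FPKM (-0.48 ± 0.11, adjusted p = 0.0223). Tle3 was no longer called on leaving out male 2, male 3, male 4 or female 4 and with a term for depth (adjusted p up to 0.0700).

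Zfp488 (ENSRNOG00000057542), a zinc finger repressor that works with Olig2, had the largest coefficient of variation within 1 sex among the 10, 45.7% in male cultures. It was measured at 4.65, 5.80, 7.10 and 12.4 FPKM in the male cultures 1 to 4, and 7.95, 11, 10.6 and 11.7 FPKM in the female cultures 1 to 4. Male 4 was above every female culture while the other 3 male cultures were below all of them. The difference of -0.48 ± 0.24 ranged from -0.73 to -0.29 over the 18 alternative settings and was called under none of them.

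Enpp2 (ENSRNOG00000004089), the gene of autotaxin, a secreted enzyme that makes lysophosphatidic acid, was measured at 34.0, 30.6, 32.0 and 32.6 FPKM in the male cultures 1 to 4, and 58.2, 48.9, 46.7 and 55.6 FPKM in the female cultures 1 to 4. The gap between the sexes (-0.68 ± 0.09) was wide against the spread within each. Enpp6 (ENSRNOG00000009660), which encodes a choline phosphodiesterase and is a marker of newly forming oligodendrocytes, was the lowest of the 10 genes. It stood at 1.43, 1.29, 1.11 and 2.05 FPKM in the male cultures 1 to 4, and 2.82, 4.67, 3.34 and 2.07 FPKM in the female cultures 1 to 4, so that female 4 was 1.01 times as high as male 4. The Enpp6 difference was -0.75 ± 0.22 and ranged from -1.06 (pseudocount 0.1) to -0.34 (pseudocount 5) over 17 alternatives, with no call in any.

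Of 15 other genes of the Enpp family and of lysophosphatidic acid signalling 9 were tested and 0 were called by limma-trend, with 1 at an unadjusted p under 0.05. The receptor gene Lpar1, found in maturing oligodendrocytes, stood at 1.80 ± 0.342 against 1.96 ± 0.330 FPKM (-0.08 ± 0.18, adjusted p = 0.843, limma-trend). The phosphatase gene Plpp1, whose product breaks lysophosphatidic acid down, stood at 19.3 ± 2.22 against 15.3 ± 1.20 FPKM (0.32 ± 0.11, adjusted p = 0.108).

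Itpr2 (ENSRNOG00000001804), the IP3 receptor gene whose product releases calcium from internal stores, stood at 6.15, 6.84, 7.22 and 6.85 FPKM in the male cultures 1 to 4, and 17.7, 12.9, 7.07 and 13.3 FPKM in the female cultures 1 to 4. Female 3 lay within the male range and the other 3 female cultures above it. Without female 3 the difference of -0.76 ± 0.21 became -1.0 and was called. Itpr2 was the main IP3 receptor gene here, since Itpr1 was at 0.232 to 0.819 FPKM and Itpr3 at 0 to 0.127 FPKM over the 8 libraries. Of the other calcium release and entry genes 9 were tested and 0 were called by limma-trend, with 1 at an unadjusted p under 0.05. They included Stim2 (30.7 ± 2.16 against 27.4 ± 3.65 FPKM, adjusted p = 0.398) and Orai1 (19 ± 2.02 against 20.2 ± 2.30 FPKM, adjusted p = 0.710).

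Tns3 (ENSRNOG00000025695), which links integrins to the actin skeleton, was measured at 15.1, 14.5, 14.1 and 15.6 FPKM in the male cultures 1 to 4, and 39.7, 27.2, 23.0 and 34.2 FPKM in the female cultures 1 to 4. The 4 male values were nearly equal and the female values fell well above them (-0.99 ± 0.15). Among other tensins Tns1 was at 0.0608 to 0.440 FPKM and Tns4 was listed at 0, while Tns2 was called as higher in female cultures (5.76 ± 0.907 against 10.3 ± 2.09 FPKM, -0.73 ± 0.15, adjusted p = 0.0193, limma-trend). The focal adhesion gene Pxn was also called (15.0 ± 1.03 against 20.8 ± 1.67 FPKM, -0.45 ± 0.09, adjusted p = 0.0193), which made 2 of 7 tested in this group. Tns2 was no longer called on leaving out male 2, male 3, male 4 or female 4 and with a term for depth (adjusted p up to 0.0649). Pxn was no longer called on leaving out male 2, male 3 or female 1, after rescaling to the same sum, with a replicate block and with relative depth (adjusted p up to 0.0704).

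Bcas1 (ENSRNOG00000012906), whose product marks oligodendrocytes in the act of forming myelin, was measured at 176, 135, 119 and 139 FPKM in the male cultures 1 to 4, and 316, 249, 231 and 295 FPKM in the female cultures 1 to 4. The groups did not overlap, and the difference was -0.94 ± 0.13. Bcas1 stood at 0.707 ± 0.0789 of the level of the myelin basic protein gene Mbp in male and 1.37 ± 0.254 in female cultures, since Mbp itself had a log2 difference of 0.01 ± 0.09. Fyn (ENSRNOG00000000596), the Src family kinase gene that acts between axon contact and myelin protein synthesis, was measured at 174, 181, 164 and 172 FPKM in the male cultures 1 to 4, and 213, 198, 190 and 213 FPKM in the female cultures 1 to 4. Its log2 difference was the smallest of the 10 (-0.23 ± 0.06), although the groups did not overlap.

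Of the 16 tested partners and relatives of Fyn, 1 was called, Arhgap35, the gene of p190RhoGAP, a substrate of the kinase, at 74.3 ± 4.54 against 119 ± 19.5 FPKM (-0.66 ± 0.11, adjusted p = 0.00661, limma-trend). Cntn1, which encodes the adhesion protein contactin, stood at 399.8 ± 38.8 against 490.0 ± 36.3 FPKM (-0.30 ± 0.08, adjusted p = 0.0586), and was called without female 3, without male 1 and female 3, and among genes averaging 5 FPKM or more. The RNA-binding protein gene Hnrnpf lay towards male cultures at 224 ± 6.94 against 185 ± 19.5 FPKM (0.28 ± 0.08, adjusted p = 0.0572). It was called as higher in male cultures in 5 of 18 alternatives: among genes averaging 5 FPKM or more, after rescaling, with quantile normalization, without female 3, and without male 1 and female 3.

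**Figure D2:**
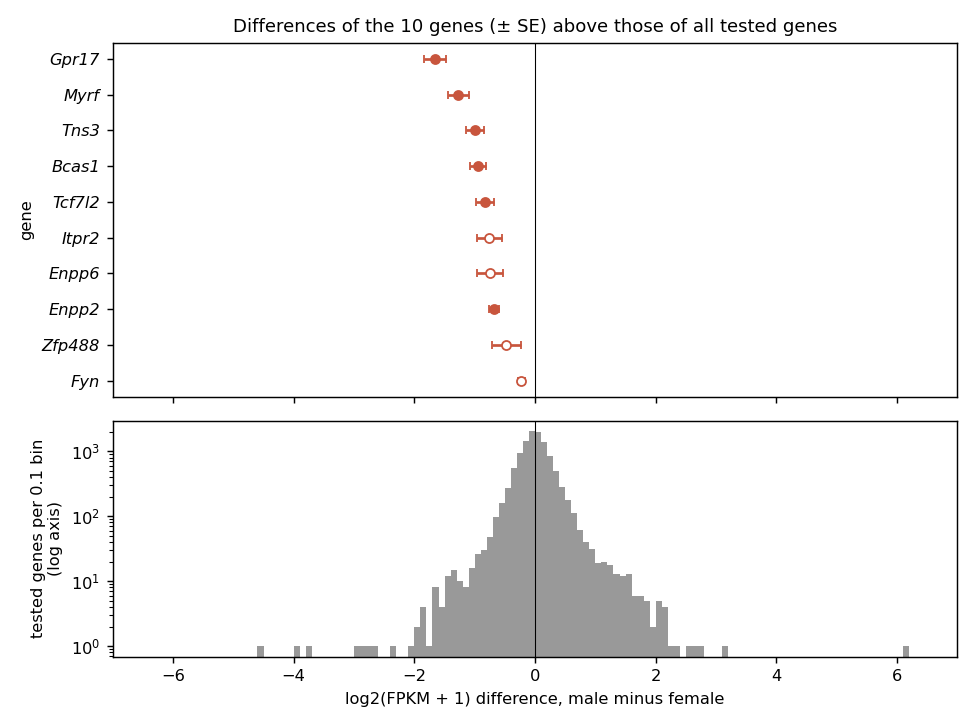
Upper panel: difference of each of the 10 genes between male and female cultures (horizontal axis, male minus female in log2(FPKM + 1), ± SE), filled where limma-trend called the gene and open where it did not. Lower panel: the same difference for all 11263 tested genes (log axis of counts). The 10 genes lie between -1.66 and -0.23, and the median of all tested genes is -0.0038.

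All 10 differences were negative, with a median of -0.80 against -0.0038 over all tested genes, of which 50.7% were negative. In the fit over all 11263 genes 6 of the 10 passed an adjusted p of 0.05 as higher in female cultures (Gpr17, Myrf, Tns3, Bcas1, Tcf7l2 and Enpp2) and 0 as higher in male ones; at an unadjusted p under 0.05 the counts were 9 and 0, where 9.94% and 11.3% of all tested genes passed. Enpp6, Fyn, Itpr2 and Zfp488 did not pass. The background is that 6.04% of tested genes were called in either direction (680). Among them 2.89% of tested genes were called as higher in female cultures (326) and 3.14% as higher in male cultures (354). After rescaling each library to the same sum that split was 192 and 772, with the same number, 6, of the 10 genes called. The 4 female libraries lay above all 4 male ones in 8 of the 10 genes and in 6.77% of all tested genes, and the 4 male ones lay above all female ones in 0 of the 10 and in 7.26%. Since this contrast was in view when the genes were chosen, nothing is read from these shares. In these mixed cell cultures, fewer cells of a type and less RNA per cell cannot be told apart.

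The order of levels was read within each sex. In male cultures Fyn (173 ± 6.99 FPKM) and Bcas1 (142 ± 24.4) were highest and overlapped, followed without overlap by Gpr17 (43.1 ± 3.41), Enpp2 (32.3 ± 1.41) and Tns3 (14.8 ± 0.687). Zfp488 (7.49 ± 3.42), Tcf7l2 (6.90 ± 0.823), Itpr2 (6.77 ± 0.447) and Myrf (5.16 ± 0.907) followed, each overlapping the next, and Enpp6 (1.47 ± 0.407) was lowest. In female cultures Bcas1 (273 ± 39.5 FPKM) stood above Fyn (203 ± 11.2), Gpr17 (143 ± 40.3), Enpp2 (52.4 ± 5.46) and Tns3 (31.0 ± 7.40), with no overlap between neighbours. Myrf (14 ± 3.39), Tcf7l2 (13.2 ± 3.13), Itpr2 (12.8 ± 4.37) and Zfp488 (10.3 ± 1.64) again overlapped, and Enpp6 (3.22 ± 1.10) was lowest. Bcas1 exceeded Fyn in 4 of 4 female cultures, and Fyn exceeded Bcas1 in 3 of 4 male ones. Gpr17 was 0.250 ± 0.0286 of the Fyn level in male and 0.696 ± 0.162 in female cultures, and 0.189 ± 0.0195 of the Pdgfra level in male and 0.466 ± 0.0944 in female ones, neither with overlap. The ratios of Tns3 to Tcf7l2 (2.17 ± 0.205 and 2.36 ± 0.285) and of Itpr2 to Tcf7l2 (0.997 ± 0.190 and 0.962 ± 0.241) overlapped between the sexes.

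**Figure D3:**
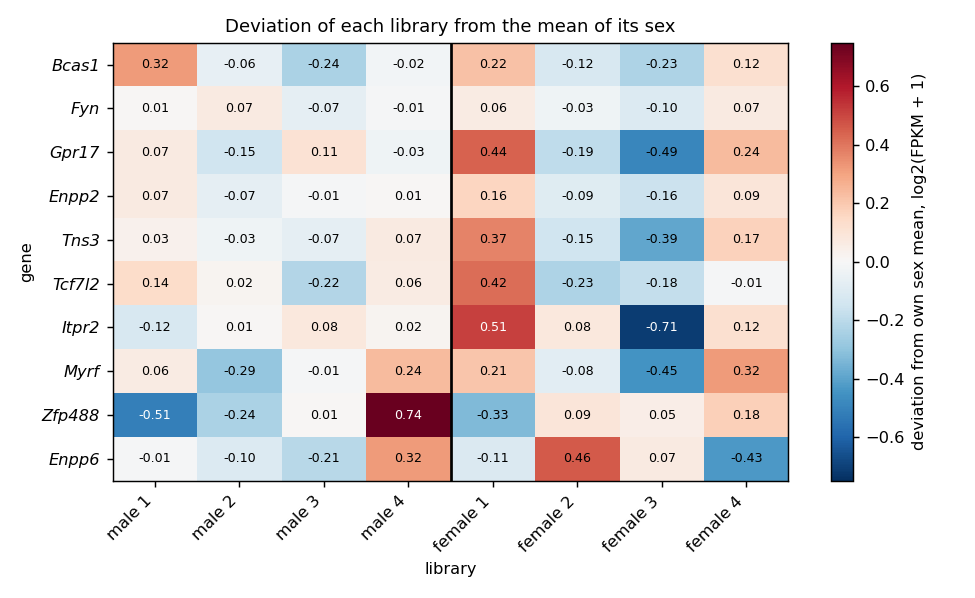
Deviation of every library from the mean of its own sex for each gene (colour and printed value, log2(FPKM + 1)), with libraries on the horizontal axis and genes on the vertical one. Female 3 is below the female mean in 8 of the 10 genes and female 1 above it in 8.

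Within the female cultures 5 of the 10 genes ranked the libraries in 1 order. Female 1 was highest in 6 of them and above the female mean in 8, with a median deviation of 0.22, and female 3 was lowest in 7, with a median deviation of -0.20. The full order female 1, female 4, female 2, female 3 held for 5 genes (Bcas1, Gpr17, Enpp2, Tns3 and Itpr2), and 6.81% of all tested genes had that order. Fyn and Myrf had the same order with female 4 ahead of female 1. Tcf7l2 had female 2 as the lowest, behind female 3. Zfp488 was lowest in female 1, and Enpp6 was highest in female 2 and lowest in female 4. Among all tested genes 31.8% were highest in female 1 and 25.9% lowest in female 3.

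In male cultures the 10 genes had 8 different orders of the 4 libraries, and no library held more than 4 of the highest or 5 of the lowest values. The coefficient of variation was larger in female than in male cultures for 8 of the 10 genes (all but Bcas1 and Zfp488), against 55.6% of tested genes. Its median was 9.90% in male and 23.8% in female cultures for the 10 genes, and 12.6% and 13.6% for all tested genes. With 4 libraries per sex there are too few for a correlation between genes within 1 sex, so none is given.

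**Figure D4:**
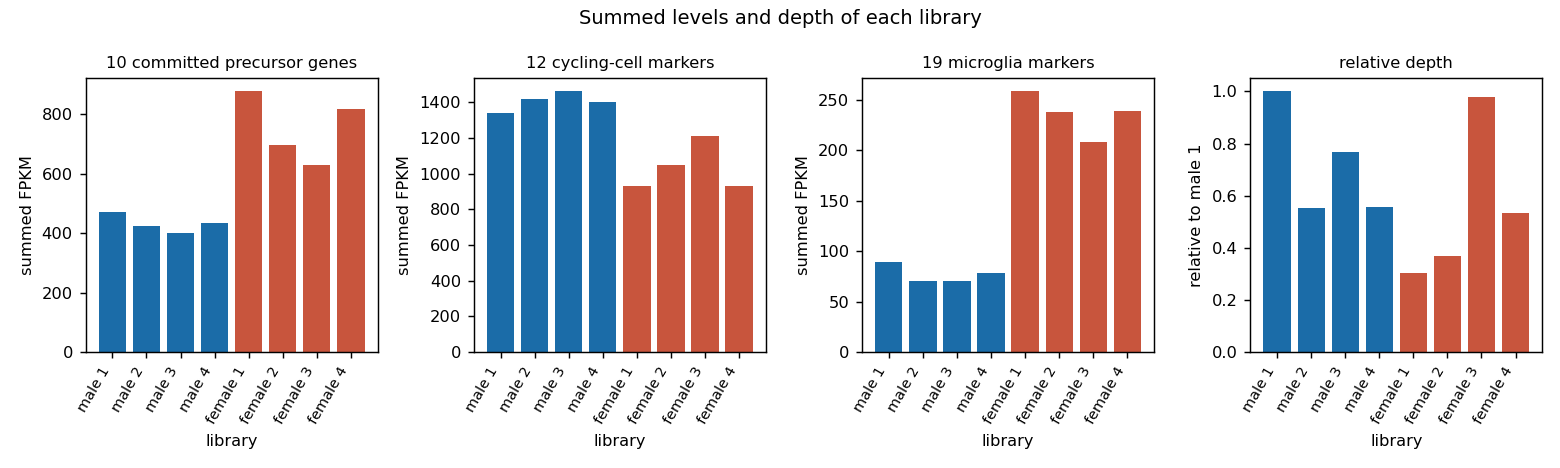
Summed FPKM of the 10 genes, of 12 markers of cycling cells and of 19 microglia markers, and relative depth, for each library (vertical axes from 0; blue male, red female). Among the female libraries the 10 genes sum highest in female 1 (877) and lowest in female 3 (631), where the cycling markers sum highest (1210).

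Markers of dividing cells were measured along the same libraries. Female 3, lowest for 7 of the 10 genes, was the highest female culture in 10 of 12 cycling markers, with a median deviation of 0.26. Among all tested genes 24.6% were highest in female 3. The proliferation marker Mki67 went the other way, at 2.5 FPKM in female 3 against 4.71, 5.14 and 3.27 FPKM in female 1, female 2 and female 4. Female 4 and female 1 were lowest in 6 and 5 of the 12. The 12 summed to 930, 1050, 1210 and 929 FPKM in female 1 to female 4, and to between 1340 and 1460 FPKM in male cultures. The 10 genes summed to 877, 697, 631 and 818 FPKM in female 1 to female 4 and to between 402 and 470 FPKM in male cultures. All 12 cycling markers lay towards male cultures and 8 were called, among them the DNA clamp gene Pcna (286 ± 8.57 against 197 ± 29.0 FPKM, 0.55 ± 0.09, adjusted p = 0.00759, limma-trend) and the helicase gene Mcm3 (42.2 ± 2.96 against 27.5 ± 1.90 FPKM, 0.60 ± 0.08, adjusted p = 0.00288). Mki67 overlapped between the sexes and was not called (5.23 ± 0.563 against 3.9 ± 1.23 FPKM, 0.38 ± 0.19, adjusted p = 0.282). Female 3 was also the deepest female library (0.98 relative to male 1, against 0.304, 0.367 and 0.533 in female 1, female 2 and female 4). The part of depth or of the share of cycling cells in the order of female cultures was not tested.

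Microglia markers moved in the same direction between the sexes as the 10 genes. Of 15 tested, 12 were called as higher in female and 0 in male cultures by limma-trend (15 and 0 at an unadjusted p under 0.05), with a median log2 difference of -1.43. The 19 markers in the table summed to between 70.0 and 89.5 FPKM in male and between 208 and 258 FPKM in female cultures. None was at 0 in all libraries, but Ptprc, Tmem119, Fcgr3a and Spi1 averaged below 1 FPKM and were not tested. Within the female cultures 8 of the 15 were highest in female 1 and 8 lowest in female 3, with median deviations of 0.15 and -0.17. The sums were 258, 238, 208 and 239 FPKM in female 1 to female 4, highest in female 1 and lowest in female 3 like those of the 10 genes. C1qa stood at 9.56 ± 2.70 against 39.05 ± 3.54 FPKM (-1.95 ± 0.15, adjusted p = 7.33e-05, limma-trend) and Aif1 at 2.68 ± 0.948 against 8.57 ± 2.55 FPKM (-1.38 ± 0.23, adjusted p = 0.00654). Of 13 tested neuron markers 5 were called as higher in male and 0 in female cultures by limma-trend (6 and 0 at an unadjusted p under 0.05). The 5 were Gad1 (19.2 ± 1.77 against 3.93 ± 1.12 FPKM, 2.05 ± 0.16, adjusted p = 7.33e-05), Gad2, Dlx1, Syt1 and Stmn2. Of the 13, 9 lay towards male and 4 towards female cultures. The neuron list summed to 377 to 412 FPKM in male and 339 to 461 FPKM in female cultures, with Slc17a7 and Eno2 at 0. Of 8 tested astrocyte markers 0 were called by limma-trend, with 3 on the female and 1 on the male side at an unadjusted p under 0.05. The part of these other cells in the differences of the 10 genes or in the order of the female cultures was not tested.

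Other genes of the committed stage, from a list of 24 without the 10 genes, were measured in the same libraries. Of 20 tested, 5 were called as higher in female and 0 in male cultures by limma-trend (7 and 1 at an unadjusted p under 0.05), with a median log2 difference of -0.19. They were Lims2, which encodes a focal adhesion adaptor, at 2.72 ± 0.480 against 6.77 ± 0.382 FPKM (-1.07 ± 0.14, adjusted p = 0.00203, limma-trend), the deacetylase gene Sirt2 at 90.6 ± 7.90 against 142 ± 22.9 FPKM (-0.63 ± 0.11, adjusted p = 0.00826), Rap2a, Nfasc and Vcan. The small GTPase gene Rap2a (-0.38 ± 0.08, adjusted p = 0.0231), Nfasc, the gene of neurofascin (-0.49 ± 0.11, adjusted p = 0.0233), and the matrix gene Vcan, named after its value was seen (-0.53 ± 0.13, adjusted p = 0.0409), were less stable. Called genes of the list numbered 2 without male 2, male 3 or female 4, 3 without male 4 or female 1, and 2 after rescaling, with a term for depth or with a replicate block. Those 3 fell out in several of these settings, with adjusted p up to 0.0942 for Rap2a, 0.0793 for Nfasc and 0.121 for Vcan. Casr, Neu4 and Kif19 were below the filter.

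Among factors upstream of commitment, 3 of 18 tested were called as higher in female and 0 in male cultures by limma-trend (8 and 1 at an unadjusted p under 0.05), with a median log2 difference of -0.09. They were Sox8 (109 ± 11.6 against 162 ± 17.4 FPKM, -0.57 ± 0.09, adjusted p = 0.00648, limma-trend), Nkx2-2 (49.7 ± 6.83 against 72.8 ± 11.7 FPKM, -0.54 ± 0.12, adjusted p = 0.0285) and Sox10 (-0.35 ± 0.08, adjusted p = 0.0327), each a transcription factor gene of the lineage. Nkx2-2 overlapped between the sexes. Sox10 was no longer called in 11 of 18 alternatives (adjusted p up to 0.102) and Nkx2-2 in 7 (up to 0.0868). Without male 2, male 3, male 4, female 1 or female 4, with no filter on low values or with a term for depth 1 of them was called, and without male 1 and female 3 together 8 were. Olig1 (-0.13 ± 0.06, adjusted p = 0.273) and Olig2 (-0.24 ± 0.06, adjusted p = 0.0512) were not called. Olig2 did not overlap between the sexes (240 to 281 FPKM in male, 287 to 314 FPKM in female cultures) and was called as higher in female cultures in 5 of 18 alternatives. Olig1 overlapped and was called in 1 of 18.

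Genes of myelin follow the committed stage, and the list of them used here also held other genes, such as the receptor gene Erbb3. Of 16 tested 3 were called as higher in female and 0 in male cultures by limma-trend (3 and 1 at an unadjusted p under 0.05), with a median log2 difference of -0.08. Cnp, an early myelin enzyme gene, stood at 268 ± 31.3 against 409 ± 35.8 FPKM (-0.61 ± 0.09, adjusted p = 0.00415, limma-trend), the lipid hydroxylase gene Fa2h at 2.69 ± 0.825 against 7.13 ± 1.44 FPKM (-1.15 ± 0.20, adjusted p = 0.00802), and the receptor gene Erbb3 at -1.26 ± 0.12 (adjusted p = 0.000403). Mog, a late myelin gene, lay towards male cultures (0.57 ± 0.24, adjusted p = 0.205), and Opalin, Ppp1r14a and Mal were below the filter. The median deviation of the myelin list from the female mean was 0.05 in female 3 and lowest in female 2, at -0.12.

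OPC markers outside the 10 genes were called as higher in female cultures in 5 of 18 tested and in male ones in 0 by limma-trend (10 and 2 at an unadjusted p under 0.05), with a median log2 difference of -0.20. Gpr37l1, a receptor gene (-0.66 ± 0.09, adjusted p = 0.00256, limma-trend), Megf11 (-0.49 ± 0.09, adjusted p = 0.00836), Tnr (-1.42 ± 0.25, adjusted p = 0.0111), Pdgfra (-0.40 ± 0.07, adjusted p = 0.0103) and the matrix gene Bcan, named after its value was seen (-0.34 ± 0.08, adjusted p = 0.0281), made up the 5. Bcan was no longer called on leaving out male 2, male 3, male 4, female 1 or female 4, after rescaling, with a replicate block and with relative depth (adjusted p up to 0.122), and Pdgfra after rescaling (adjusted p = 0.0665). Among these markers 12 of 18 were highest in female 1 and 13 of 18 lowest in female 3.

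The genes whose pattern over the 8 libraries was most like that of Gpr17 were found by the mean absolute difference of log2(FPKM + 1), after each gene's own mean was subtracted. Outside the 10 genes they were Luzp2 (0.159), the guidance gene Sema5a (0.163), Apobec1 (0.190), the matrix gene Tnr (0.190) and the growth factor gene Igf1 (0.197). Among the 10 genes Myrf was nearest to Gpr17 at 0.197, while Tns3 (0.338) was at rank 37 and Bcas1 (0.364) at rank 49. Luzp2 stood at 12.8 ± 1.67 against 36.1 ± 8.35 FPKM and Sema5a at 9.44 ± 1.08 against 28.9 ± 7.53 FPKM, while Apobec1 (0.415 ± 0.108 against 3.39 ± 1.89 FPKM) and Igf1 (0.666 ± 0.310 against 3.49 ± 1.47 FPKM) were low. Most like Myrf were the complement gene C3 (0.103), Erbb3 (0.132), the caveolin gene Cav1 (0.135), the matrix gene Acan (0.139) and Luzp2 (0.150). Tns3 (0.153) was at rank 6 and Gpr17 (0.197) at rank 14. The step between the sexes makes up most of each pattern, so this likeness is a description of the same contrast over 8 libraries.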

How the data were processed

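RNA of 8 OPC cultures was measured, 4 male and 4 female, grouped and numbered by the sample titles. The authors deposited 1 table of FPKM values, a unit given in its column names. Reads were handled with Trimmomatic and FastQC, per the submitters' processing notes; the aligner, FPKM program, genome build, annotation release and use of strand remain unnamed (not given in the sources used here), so overlapping and antisense genes may share reads. FPKM depends on library composition, so abundant genes lower all others.

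Genes averaging 1 FPKM or more (11263 of 32883) were tested on log2(FPKM + 1) with limma-trend (limma 3.58.1, R 4.3.3), robust moderation and Benjamini-Hochberg adjustment over all tested genes, threshold 0.05. A gene is called when it passes. The members and all lists were chosen with earlier results of these data known. Named genes are the 10, up to 4 of smallest p per list, a fixed set, and the 5 most like Gpr17 and Myrf. Some genes of these lists are not reported here by name. On simulated data of 11263 genes, 200 of them changed, 42.0%, 81.6% and 94.4% of genes changed by 0.5, 1 and 2 (log2) were recovered, with 5.19% of calls false. The simulated noise was independent between genes and libraries. Deviations shared by many genes were not simulated, so these shares need not hold in the real libraries. Relative depth of a library is the commonest ratio of the male 1 value to its own value, among genes above 0 and below 1 FPKM in both. Promoter windows and their motif matches came from the RefSeq table of build GRCr8, which was not matched to the authors' build. Alternatives were other pseudocounts (0.1, 5), other filters (none, or averages of 5 FPKM or more), rescaling to the same sum, quantile normalization, a replicate block, depth as a covariate, no robust moderation, and libraries left out.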

Additional observations from a re-analysis of the deposited data

Results flagged for a closer look

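None of the 20 groups of 4 values of the 10 genes (2 sexes each) held a library standing apart from the other 3 by more than a Dixon test at 95% allows. Among the other named genes 5 groups did, of 186 groups checked in all, where chance flags about 1 in 20. The corepressor gene Tle1 was 1.24 FPKM in female 4 against 2.41 to 2.48 in the other female cultures. Axin2 was 2.01 FPKM in female 2 against 2.60 to 2.66. The vesicle gene Syt1 was 10.4 FPKM in female 2 against 12 to 12.3. Tns2 was 7.12 FPKM in male 1 against 5.25 to 5.41, and Lpar1 was 2.31 FPKM in male 4 against 1.59 to 1.67.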

How the results depend on the processing

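The 10 genes were selected on this contrast in these libraries, so how their values move between settings is a description and supports nothing. Called members numbered 6 to 8 with 1 library left out; Itpr2 and Fyn were added without female 3, without male 1 and female 3 together and among genes averaging 5 FPKM or more, and Fyn also with quantile normalization and without robust moderation. The members' median was -0.94 to -0.74 with 1 library left out, -0.61 with a pseudocount of 5 and -0.95 without male 1 and female 3. The order of levels kept 7 to 10 of 10 places with 1 library left out; after rescaling, 10 genes were below the female mean in female 3 instead of 8.

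All called genes numbered 680, and 296 to 808 with 1 library left out (149 to 354 higher in female, 147 to 454 in male cultures), 882 without male 1 and female 3 (403 and 479), 397 with a replicate block (189 and 208), 367 with relative depth (188 and 179), and 192 and 772 by sex after rescaling. Same-numbered cultures showed little shared deviation, with correlations of -0.0851, 0.0767, -0.0645 and 0.0357 over genes, while male 1 and female 3 reached 0.242. Male 1 and female 3 were also the deepest libraries of their sex (1 and 0.98 relative to male 1). The correlations cannot show whether same-numbered cultures were prepared together. Over the lineage and partner lists 21 of 141 tested genes were called as higher in female and 0 in male cultures by limma-trend. Among all tested genes these shares were 2.89% and 3.14%, and the lists were chosen with earlier results of these data known. The list counts were 11 to 25 and 0 to 2 with 1 library left out, and 32 and 2 without male 1 and female 3. In female cultures 12 were called with relative depth. In male cultures 1 was called at 5 FPKM, 4 after rescaling and 1 with quantile normalization. The further committed genes gave 2 to 5 (male 0 to 1) with 1 library left out, 2 after rescaling, with a replicate block or with relative depth, and 1 higher in male cultures without male 1 and female 3. Regulators gave 1 to 4 with 1 library left out, 1 with no filter or with relative depth, and 8 without male 1 and female 3; OPC markers gave 4 to 7 (male 0 to 1), 3 and 1 after rescaling and 9 without male 1 and female 3. The cause of these changes was not tested.

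Among the named genes directions turned in genes close to 0 or widely spread: Mbp (-0.04 with quantile normalization, -0.06 with relative depth, -0.03 without male 1 or female 1, -0.05 without female 2, -0.02 without male 1 and female 3; -0.05 to 0.08 with 1 library left out), Dynll2 (-0.0015 with relative depth), Prdm8 (-0.01 without male 1, -0.03 without female 3, -0.07 without both; -0.03 to 0.1 with 1 left out), Lpar1 (0.001 without both; lowest -0.17 without male 4) and Gfap (-0.0015 to 0.79 with 1 left out, -0.32 without both). Depth is unknown, so low genes such as Enpp6 carry more counting error than the values show.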
